A study of Mus musculus with 39 samples.

Results

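Cluster 1 is 1 of the 8 groups into which the consensus peaks of NOTCH and RBPJ binding in the embryonic mouse cortex were divided. It holds 2185 of the 20811 consensus peaks, all of them on the autosomes and chromosome X. Its members were selected on the cluster number that the deposited table gives to each peak. That number came from k-means clustering of binding intensities, which were averaged over samples, divided by peak length and scaled to z-scores. The table holds no intensities, so the peaks are described here by their position, source lists, neighbouring genes and sequence.

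Binding was measured by Targeted DamID (TaDa), in which a protein is fused to the Dam methylase of E. coli, a GATC-specific enzyme, and methylated GATC sites near its binding sites are sequenced. Plasmids were introduced by in utero electroporation into the cortex of wild-type MF1 mouse embryos at E13.5, and tissue was dissected at E14.5. A fragment of the Hes5 promoter drove expression in radial glial cells (RGCs) and the Tα1 promoter in intermediate progenitor cells (IPCs). The RGC Notch list came from 4 samples, 2 with the intracellular domain of NOTCH1 (NICD) and 2 with NdECD, a NOTCH1 that lacks the extracellular domain. The IPC Notch list came from 4 NICD samples, so the construct and the cell type cannot be told apart where the Notch lists differ, and the RBPJ lists from 3 samples in each cell type with human RBPJ1. All these proteins were expressed from plasmids in cells that also carry their own Notch and Rbpj genes, and Dam alone served as the control, with 5 RGC and 4 IPC samples. The labels link the RGC tracks to 4 of these 5. Each list pools its replicates, so no value of a single sample, height or fold enrichment was at hand and no comparison between clusters was tested. Peaks are not replicates of a condition. The 95% intervals given below cover counting error over peaks or matches alone, by Wilson's method for shares and by exact Poisson limits for densities.

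NOTCH receptors are cleaved after contact with a ligand of a neighbouring cell, and the released NICD enters the nucleus. It does not bind DNA itself but joins RBPJ, which recognises the core word TTCCCA, and the coactivator Mastermind. Without NICD, RBPJ can recruit corepressors such as Groucho (TLE) proteins. In RGCs, the neural stem cells of the developing cortex, Notch signalling maintains the progenitor state, mainly through the HES and HEY repressors.

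Stretches of 180 bases from 6 members are shown because they carry the features the account turns on: a member on the start site of a Notch regulator, the Notch1 gene itself, the run with the most members, and a member without any RBPJ core word. Capitals mark TTCCCA, its reverse complement TGGGAA and the Dam site GATC. The stretches lie on the plus strand of GRCm38 (mm10), and in each member the stretch with the most core words was taken, then that with the most GATC sites.
Dtx1 upstream, chr5:120711929-120712108: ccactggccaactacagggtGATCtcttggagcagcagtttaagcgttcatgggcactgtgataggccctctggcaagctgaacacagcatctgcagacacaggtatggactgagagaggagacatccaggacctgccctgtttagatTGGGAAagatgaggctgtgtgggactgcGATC
Neurl1a upstream, chr19:47177961-47178140: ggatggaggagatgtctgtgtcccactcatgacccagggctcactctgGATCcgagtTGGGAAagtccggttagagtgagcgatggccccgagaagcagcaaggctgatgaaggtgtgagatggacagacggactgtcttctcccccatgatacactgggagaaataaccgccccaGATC
Notch1 gene body, chr2:26478993-26479172: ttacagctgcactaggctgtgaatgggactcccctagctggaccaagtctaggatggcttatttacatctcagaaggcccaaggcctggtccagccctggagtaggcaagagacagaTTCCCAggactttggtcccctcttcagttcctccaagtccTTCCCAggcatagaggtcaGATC
Tle4 intron, chr19:14591953-14592132: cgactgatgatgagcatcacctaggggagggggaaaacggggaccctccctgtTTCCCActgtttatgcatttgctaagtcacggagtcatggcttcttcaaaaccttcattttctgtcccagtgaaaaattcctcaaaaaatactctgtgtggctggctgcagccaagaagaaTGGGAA
Mpped2 intron, chr2:106706295-106706474: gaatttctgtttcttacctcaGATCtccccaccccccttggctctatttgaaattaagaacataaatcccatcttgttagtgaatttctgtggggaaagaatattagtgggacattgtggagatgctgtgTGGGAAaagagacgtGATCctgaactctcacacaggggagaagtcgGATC
Celf2 intron, chr2:6586178-6586357: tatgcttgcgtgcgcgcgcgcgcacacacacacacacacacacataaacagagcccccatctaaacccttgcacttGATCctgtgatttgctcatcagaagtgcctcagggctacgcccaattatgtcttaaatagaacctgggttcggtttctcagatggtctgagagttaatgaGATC
The Tle4 and Notch1 stretches each hold 2 core words, and those of Dtx1, Neurl1a and Mpped2 hold 1 each. The member in Celf2 holds none over its whole length of 3148 bp, and its stretch shows 2 of its 9 GATC sites.

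An RGC Notch peak was called at 1546 members, or 70.8% (68.8 to 72.6), where 17.7% of all consensus peaks on nuclear chromosomes were called. An RGC RBPJ peak was called at 843 members, or 38.6% (36.6 to 40.6), against 67.6% of all. For the IPC lists the shares were 2.33% (51 members) for Notch and 1.78% (39 members) for RBPJ, against 10.1% and 26.2% of all. The cluster was formed from the intensities behind these calls, so the shares describe how it was chosen. RGC Notch calls led the cluster, but 639 members, or 29.2%, had no RGC Notch call, so the description as mostly radial-glia Notch covers a majority and not the whole.

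By combination of lists, 1277 members (58.4%, 56.4 to 60.5) were called for Notch in RGCs only. RGC RBPJ was the single list of another 598 (27.4%), and 220 (10.1%) were in the 2 RGC lists and no other. The remaining 90 members (4.12%) had an IPC call, and 33 of them had no RGC call. Notch was called in both cell types at 24 members and RBPJ at 14. No member was called for both proteins in IPCs or in all 4 lists. Of all consensus peaks, 141 (0.678%) were called in all 4 lists. A single list held 87.3% of the members and 82.9% of all consensus peaks, so calls in 1 list were common in both. In 2 lists were 11.9% of the members and 13.2% of all, and in 3 lists 0.778% and 3.20%. Overlaps of named lists are given here for members only. From the side of the lists, cluster 1 took 41.9% of the consensus peaks called for RGC Notch, 5.99% of those for RGC RBPJ, 2.43% of those for IPC Notch and 0.715% of those for IPC RBPJ. Of the 3688 consensus peaks called for RGC Notch, cluster 4 held 850, cluster 6 held 442, cluster 2 held 347 and cluster 5 held 274.

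**Figure D1:**
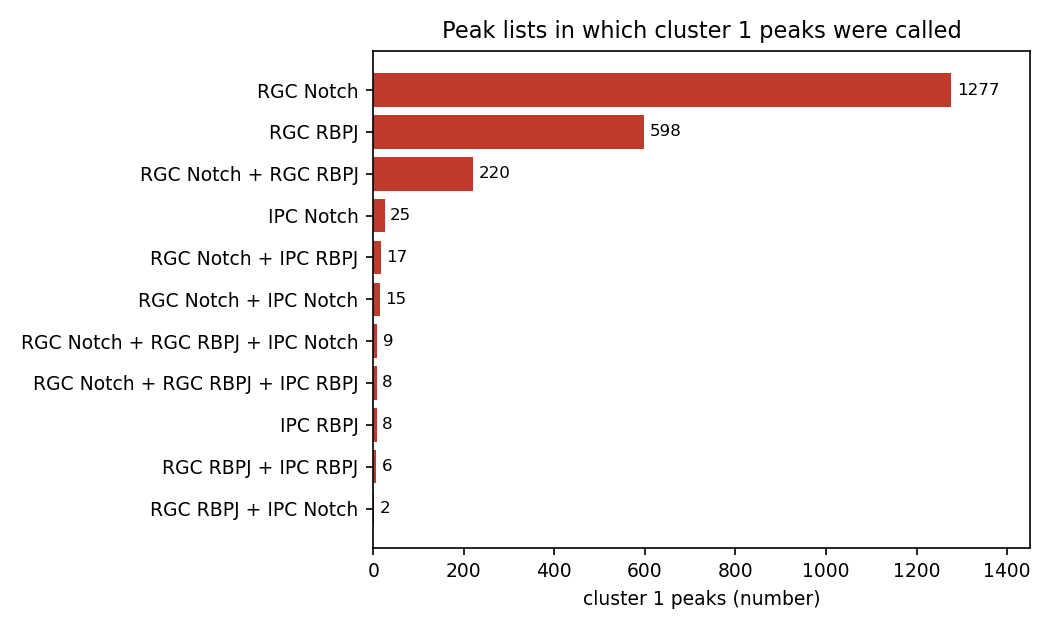
Number of cluster 1 peaks (horizontal axis) called in each combination of the 4 peak lists (vertical axis). The bar for RGC Notch alone stands at 1277, that for RGC RBPJ alone at 598 and that for both at 220, and the other 8 bars reach at most 25.

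Members were wide, with a median of 2415 bp (2323 to 2502). The median was 1906 bp in cluster 4, 2278 bp in cluster 5, 2309 bp (2233 to 2381) in cluster 6 and 1835 bp over the other 7 clusters. Width was not independent of the clustering, which divided by it. Members called for RGC Notch only and RGC RBPJ only were of like width, with medians of 2236 and 2289 bp, whereas those called in both RGC lists alone had a median of 3880 bp. Including those with an IPC call, 237 members had both RGC calls, and in all 237 the Notch and RBPJ peaks shared bases. Consensus peaks were made by merging overlapping peaks, so such sharing was nearly fixed in advance. Merging also widens a member that is called in both lists. In these 237 the Notch peak covered a median of 99.8% of the member and the RBPJ peak 73.5%. The widest member, 9502 bp at chr7:113141858-113151359, lay 56.1 kb upstream of Arntl, which encodes a core factor of the circadian clock, and was called for RGC Notch only. The next, of 9492 bp at chr12:54041055-54050546, lay in an intron of Npas3, 153 kb from the start of Egln3. The third widest, of 8876 bp, lay in an intron of Prdm16, a transcription factor of RGCs, and was called in both RGC lists. A member of 8689 bp at chr8:32878844-32887532 covered a start site of Nrg1, which encodes a ligand of ERBB receptors. The fifth, of 8642 bp, lay 116 kb from the predicted gene Gm26897.

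The edges of the members lay close to Dam sites, at a median of 10 bp from the nearest GATC. The median was 8 bp in clusters 4 and 5 and 18 bp over all consensus peaks. Both edges were within 20 bp of a GATC at 671 members (30.7%). That share was 33.2% in cluster 4, 32.7% in cluster 5 and 28.8% over all consensus peaks. An example is this 3463-bp member of Mpped2, shown by 40 bases around each edge.
Mpped2 left edge, chr2:106711777-106711816: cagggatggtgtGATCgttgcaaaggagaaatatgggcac
Mpped2 right edge, chr2:106715239-106715278: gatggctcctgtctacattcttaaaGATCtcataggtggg
Dam reports binding at GATC sites alone, so the distances given below are no finer than the spacing of these sites.

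Each member was assigned the protein-coding gene with the nearest start site, by the GENCODE M21 annotation. The 2185 members had 1727 nearest genes, 7.87% of the 21938 protein-coding genes, or 20.3% of the 8492 genes that were nearest to any consensus peak. Of these, 1421 genes had a single member and 15 had 5 or more. For 470 genes (27.2%) every consensus peak was a member, and the other genes also had peaks of other clusters, most often of cluster 5 (739 genes, 42.8%), the largest cluster.

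The 15 genes with 5 or more members, 88 members in all, encode receptors, adhesion molecules and transcription factors for the most part, and were nearest to 17 to 39 consensus peaks each. Mpped2, a gene for a metallophosphoesterase-domain protein, had 8 members among 19 consensus peaks, and 7 of the 8 were called for RGC Notch. Celf2, which encodes an RNA-binding regulator of splicing, had 8 of 26, all within the gene body, between 0.156 and 81.0 kb from a start site. Epha4, an ephrin receptor, had 8 of 39, spread from 28.6 to 806 kb, of which 5 were called for RGC Notch and the other 3 for RGC RBPJ only. Slc4a3, an anion exchanger gene, had 7 of 18, all downstream of it at 107 to 842 kb. The nearest gene is a weak guide there, as it is for the far members of Epha4. Opcml, of the IgLON adhesion family, had 6 of 22, of which 3 were called for RGC Notch. Sox6, a transcription factor of the SoxD group, had 6 of 30, of which 4 were called for RGC Notch only and 2 for RGC RBPJ only.

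Among the genes with 5 members, all 5 were called for RGC Notch at Adgrl2 (of 33 peaks), which encodes a latrophilin, at Tox3 (of 20), an HMG-box factor, and at Gli3 (of 21), a transcription factor of Hedgehog signalling. Another 4 genes had 3 of 5 called for RGC Notch. They were Id4, an inhibitor of basic helix-loop-helix factors, Mycn, Ntm and Dab1, the adaptor of reelin signalling. At Sall1, a zinc-finger factor, and Tenm3, a teneurin, 4 of 5 were called. Id4, Mycn and Sall1 held no member in the gene itself, and their members lay 16.1 to 342, 19.8 to 311 and 94.7 to 425 kb from the start site. None of the 15 genes had a member on a start site.

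**Figure D2:**
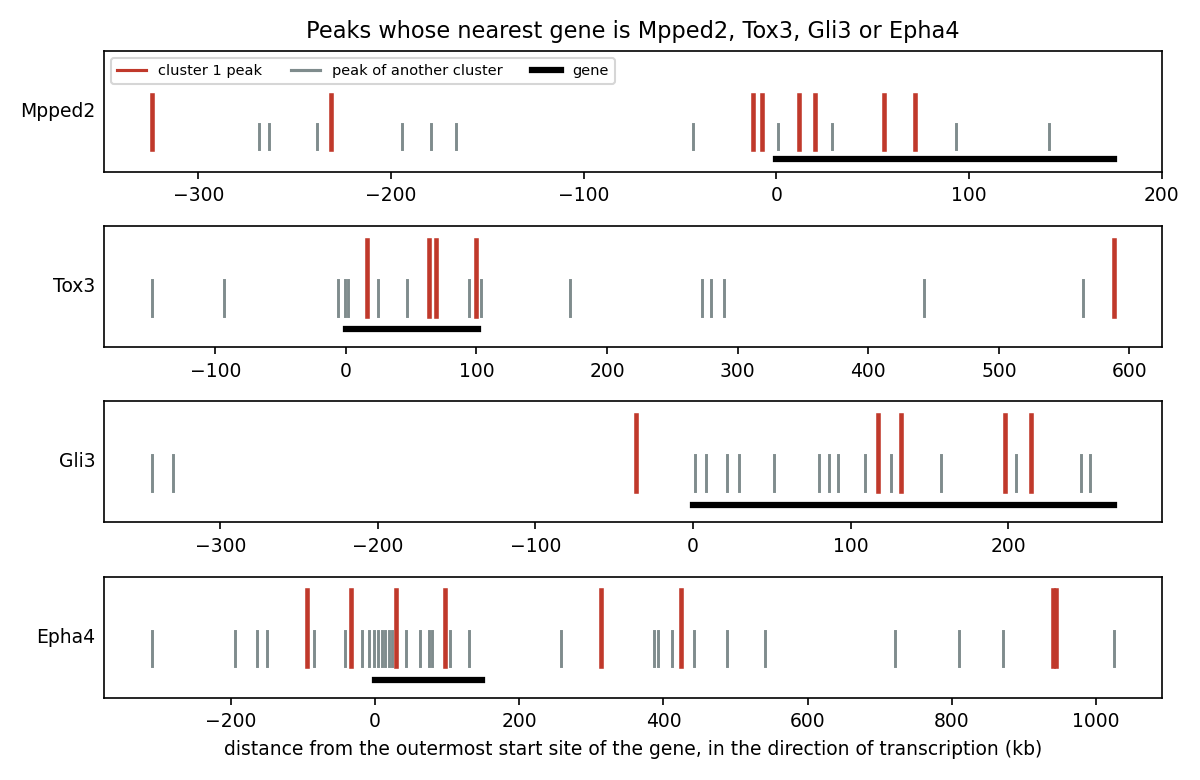
Consensus peaks whose nearest gene is Mpped2, Tox3, Gli3 or Epha4, by distance in kb from the outermost start site in the direction of transcription. Tall red lines are cluster 1 peaks, short grey lines are peaks of other clusters, and the black bar is the gene. A run of 6 cluster 1 peaks surrounds the start of Mpped2, and 4 of the 5 at Tox3 and 4 of the 5 at Gli3 lie inside the gene.

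In the Notch pathway list of 50 genes, 34 were nearest to a consensus peak and 11 to a member. These 11 had 17 members, which is 10.5% of the 162 peaks of the list, and members made up 10.5% of all consensus peaks. Tle3, a Groucho corepressor, had 3 of 25, which followed one another between chr9:61432343 and chr9:61448218, 22.4 to 37.2 kb downstream of the start site. The outer pair had an RGC RBPJ call alone, and the middle one had both RGC calls. Tle1 and Tle4 had 2 members each, all 4 in introns and all called for RGC Notch, that of Tle1 at chr4:72188976-72192951 with 7 core words.

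Of the ubiquitin ligases, Dtx1, which encodes Deltex, had 1 consensus peak in all, a member on its start site of 4683 bp at chr5:120709753-120714435, called for RGC RBPJ only. Neurl1a, which encodes Neuralized, a regulator of ligand endocytosis, also had 1 peak, a member 0.320 kb upstream of the start site at chr19:47176620-47178500, called for RGC Notch only. The member of Fbxw7, whose product marks NICD for degradation, lay 30.5 kb from a start site, and that of Numb, an inhibitor of NOTCH, lay in an intron 16.8 kb from one. Maml3, a Mastermind coactivator, had a member of 500 bp in an intron, and Nepro, a gene of neural progenitor maintenance, one 67.5 kb upstream. These 4 members were called for RGC Notch only.

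Notch1, the receptor itself, had 1 member among 12 peaks, at chr2:26475748-26480510. It was called for Notch and RBPJ in RGCs and for Notch in IPCs, and held 7 core words and 14 GATC sites in 4763 bp. It spanned exons 7 to 15 of 34, with 1368 coding bases (28.7% of its length) that encode residues 367 to 823 of 2531. These residues belong to the extracellular part, which NICD and NdECD lack. The list of plasmid-borne genes, with 1 member among 22 peaks (4.55%), also holds Rbpj and the genes of the promoters used, Hes5 and Tuba1a, none of which had a member. Rbpj is listed as the mouse gene, whereas the plasmids carried human RBPJ1.

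The other 23 Notch pathway genes with peaks had no member. Hes1 had 12 consensus peaks and none in cluster 1, and the nearest member lay 310 kb from its start. Hes5 had 3, Hey1 had 4, Heyl had 2 and Hey2 had 1, again with no member, and Hes6 had no consensus peak. Nrarp, a feedback inhibitor of Notch, had 3, and its nearest member lay 54.6 kb away. The ligand genes Dll1 and Jag1 had 3 each, and Notch2 had 6. For the 23 genes with peaks, called binding lay in other clusters.

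Genes of RGCs were represented by 19 of 41, with 43 members among 370 peaks (11.6%). Of these members 35 were called for RGC Notch, a call that 70.8% of all members had. Sox9, a stem cell factor, had 4 members, 24.6 to 335 kb from its start, and Msi2, an RNA-binding protein of progenitors, had 4, 3 of them in the gene. Sox2 had 2, one of them 7681 bp wide at chr3:34571556-34579236 and called in the IPC RBPJ list as well as in both RGC lists. Of 19 IPC genes, 3 had a member, with 3 among 52 peaks (5.77%). Among them were Cux2, with 1 member in an intron, and Gadd45g, with 1 at 307 kb. Of 30 genes of cortical neurons, 14 had members, with 39 among 283 peaks (13.8%), led by Celf2, Dab1, Auts2 and Zbtb20. Auts2 had 4 of 47, one of them 8012 bp wide, and Zbtb20, a zinc-finger repressor, had 4 of 19.

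For the signalling pathways, 11 of 45 Wnt genes had members, with 17 among 158 peaks (10.8%), including Tcf7l1, a nuclear effector of the pathway, with 2 in introns. The Hedgehog list had 4 of 17 genes and 11 of 92 peaks, from Gli3, Gli2, Cdon and Boc. Gli2, a transcription factor like Gli3, had 3, all in introns, of which 2 were called for RGC RBPJ only. In the FGF list 9 of 26 annotated genes had 10 members among 76 peaks (13.2%). All 10 were called for RGC Notch, as were 70.8% of all members. Among the 9 genes were Fgfr1, with a member in an intron 5.25 kb from a start site, and the FGF family genes Fgf10, at 17.8 kb, and Fgf13, at 0.454 kb. Ephrins and their receptors had 5 of 22 genes and 19 of 153 peaks (12.4%), of which Epha4 gave 8, Efna5 and Efnb2 gave 4 each and Epha5 gave 2. Those of Efnb2 and Epha5 lay 90.5 to 1319 and 243 to 532 kb away, so the nearest gene is a weak guide there.

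Transcription factor lists gave similar shares. Sox factors had 7 of 17 genes and 18 of 157 peaks (11.5%), including Sox5, with 3 members in the gene, all called for RGC Notch. Homeobox and POU factors had 15 of 42 genes and 30 of 268 peaks (11.2%). Pou3f3, which encodes BRN1, had 4 of 29, all called for RGC Notch and 3 of them also for RGC RBPJ, at 61.7 to 888 kb upstream. Meis2 had 4, all within the gene, 2 called for RGC Notch only and 2 for RGC RBPJ only. The list of Id, Tle and NFI factors had 6 of 12 annotated genes and 16 of 132 peaks (12.1%). Nfia and Nfib, factors of glial and neuronal maturation, had 2 members each, all 4 in introns.

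Genes of axon guidance were represented by 18 of 40, with 27 of 244 peaks (11.1%), and those of neuronal adhesion by 19 of 42, with 50 of 428 (11.7%). Nrp1, a semaphorin co-receptor, had a member on its start site called in both RGC lists, as had Unc5d, a netrin receptor. Rgma had 3 members, all called for RGC Notch only and all 187 to 380 kb upstream.

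Over the 14 lists, which share some genes, cluster 1 made up 4.55% to 13.8% of the peaks, and in all 14 the interval included the 10.5% of all consensus peaks. The share of listed genes with a member was above the 20.3% of genes with any peak for all lists but that of IPCs (18.8%), up to 51.4% for axon guidance, counted among listed genes with a peak. A gene with more peaks has more chances of a member, however. Read by peaks, the lists were near the background.

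**Figure D3:**
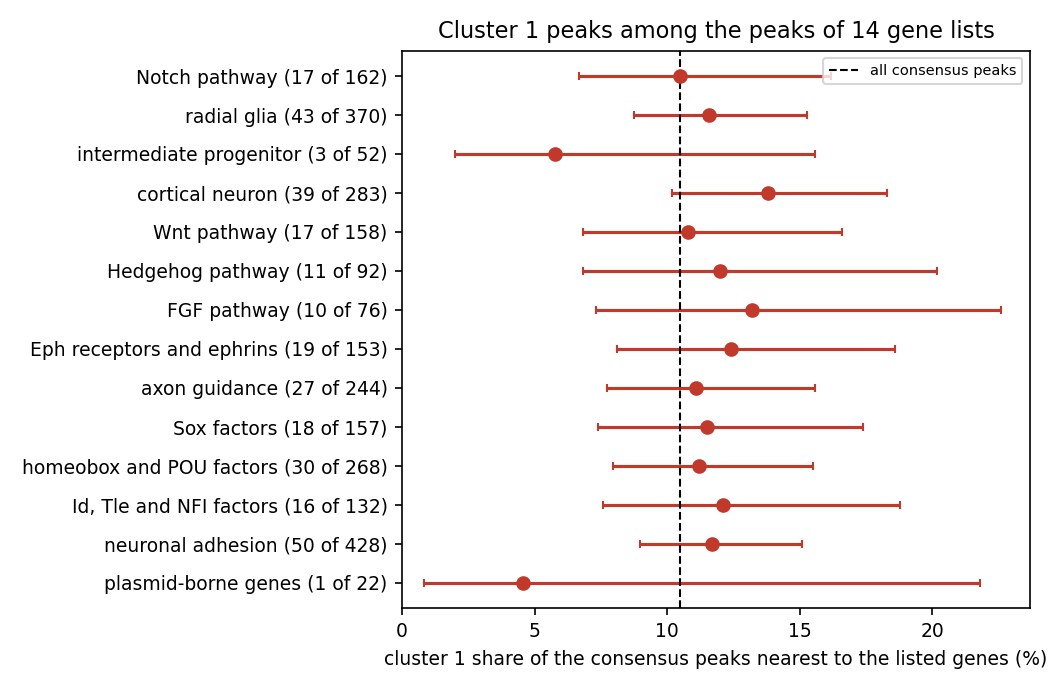
Share of cluster 1 among the consensus peaks nearest to the genes of each list, in percent, with the number of members and of peaks in brackets. Points are shares, bars are Wilson 95% intervals and the dashed line is the 10.5% of all consensus peaks. All 14 bars cross the line.

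Members lay a median of 21400 bp (19048 to 23469) from the nearest start site, measured from the edge of the peak. Cluster 4 stood at 16036 bp, cluster 5 at 17474 bp and the other 7 clusters together at 21021 bp. Clusters 2, 3 and 8 lay farther, at 25775, 23288 and 43202 bp, and clusters 6 and 7 nearer, at 18452 and 8577 bp. On a start site lay 310 members, or 14.2% (12.8 to 15.7). The share was 22.9% (21.1 to 24.8) for cluster 4. For cluster 5 it stood at 19.9% (18.8 to 21.1), and for the other 7 together at 16.8% (16.3 to 17.4). Clusters 6 and 7 had 21.2% and 29.7%, and clusters 2, 3 and 8 had 14.4%, 9.46% and 3.86%. Another 15.5% lay within 5 kb, 48.3% between 5 and 100 kb and 22.1% farther than 100 kb, with a largest distance of 1590 kb. These 310 included the start sites of 8 listed genes, which were Dtx1, the receptor genes Fgfr2, Nrp1, Plxna4 and Unc5d, the semaphorin gene Sema3f, and Nrxn2 and Ptprd, which encode synaptic adhesion molecules.

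By source, of the members called in both RGC lists alone, 25.0% (19.7 to 31.1) covered a start site, against 13.7% (11.9 to 15.7) for RGC Notch only and 10.7% (8.47 to 13.4) for RGC RBPJ only. The first were also wider, and the part of width in the difference was not tested. Away from start sites, more members lay downstream of the nearest start (1077, 49.3%) than upstream of it (798, 36.5%). All consensus peaks leaned the same way, with 45.4% downstream and 38.0% upstream. The midpoint of 1109 members (50.8%, 48.7 to 52.8) fell in an intron, of 155 (7.09%) in an exon and of 802 (36.7%) outside genes and the 5 kb upstream of them. Over the other 7 clusters these shares were 46.9%, 8.17% and 38.9%.

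**Figure D4:**
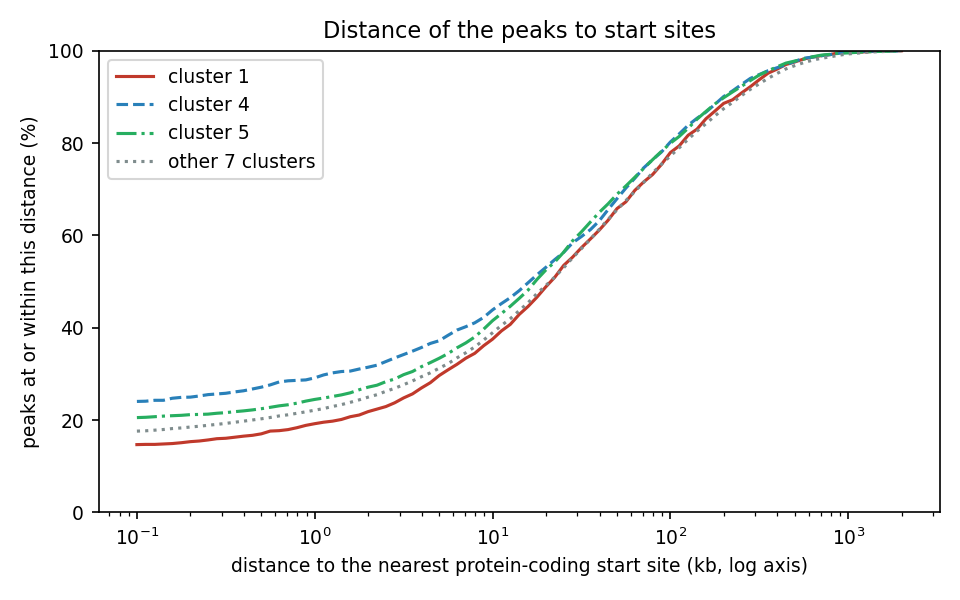
Cumulative share of peaks (percent) against the distance to the nearest protein-coding start site in kb, on a log axis. Of the curves drawn, that of cluster 1 starts lowest, near the 14.2% that lie on a start site. It starts below cluster 4 (22.9%), cluster 5 (19.9%) and the other 7 clusters together (16.8%). The curves come together beyond 100 kb. Clusters 3 (9.46%) and 8 (3.86%), which had lower shares on a start site, are not drawn singly, nor are clusters 2, 6 and 7, which had higher ones.

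The nearest consensus peak of any cluster lay a median of 24.2 kb (22.6 to 26.1) from a member, and 25.8 kb over all consensus peaks. It lay within 50 kb at 71.5% of the members and within 5 kb at 16.1%. For 487 members (22.3%) that neighbour belonged to cluster 5, for 310 (14.2%) to cluster 3 and for 275 (12.6%, 11.3 to 14.0) to cluster 1 itself. Among all other consensus peaks these clusters make up 22.5%, 16.3% and 10.5%. The nearest other member lay a median of 246 kb away, and 387 members (17.7%, 16.2 to 19.4) had one within 50 kb. That share was 18.9% in cluster 4 and 27.2% in cluster 5, which holds more peaks.

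Joined across gaps under 50 kb, the members formed 1798 single peaks, 160 pairs, 19 runs of 3, 1 of 4 and 1 of 6. The run of 6 spanned 86.0 kb at chr2:106680691-106766653, from upstream of Mpped2 into its introns, with gaps of 1.88 to 33.0 kb and 2 peaks of other clusters between them. Of these 6, 4 were called for RGC Notch only, 1 in both RGC lists and 1 for RGC RBPJ only. The run of 4 spanned 87.2 kb in Tox3 at chr8:90247827-90335030, and all 4 were called for RGC Notch only. The longest runs of 3 lay near Irs2 (106 kb), which encodes an insulin receptor substrate, between Ifitm2, Ifitm3 and Nlrp6 (92.6 kb), and in the region of Ctnnd2 (84.2 kb), a delta-catenin gene of neurons.

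Along the autosomes, cluster 1 made up between 8.11% (chromosome 6) and 11.9% (chromosome 11) of the consensus peaks. On chromosome X it had 19 of 407 peaks, or 4.67%.

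The sequence of the members was not used for the clustering. The members held 5932 matches of the RBPJ core word TTCCCA, counted on both strands, or 0.998 per kb (0.973 to 1.02). This was the lowest density among the 8 clusters, of which the others ranged from 1.07 to 1.33, with 1.17 in cluster 4 and 1.24 in cluster 5. The whole genome held 0.934 per kb, at 41.7% GC against 45.3% in the members, and was not matched to them for GC. In the central 500 bp of the members the density was 0.936 per kb (0.880 to 0.996), next to the value of the genome, and 37.7% (35.7 to 39.7) of these windows held the word. It was found in 44.5% of the central windows of all consensus peaks and in 37.0% of the 500-bp tiles of the genome. The longer word TTCCCAC was found in 8.56% of the central windows, in 13.0% of those of all consensus peaks and in 8.61% of the tiles. No core word was found anywhere in 321 members (14.7%), against 17.1% of all consensus peaks, whose median width was smaller, at 1890 bp.

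By source, members called for RGC Notch only held 0.959 core words per kb (0.925 to 0.993), those for RGC RBPJ only 1.05 (0.995 to 1.10) and those in both RGC lists alone 1.06 (0.997 to 1.13). All 3 values were below the 1.19 of the other 7 clusters together. The lowest single clusters among those were cluster 8, at 1.07 (1.05 to 1.10), and cluster 6, at 1.09 (1.07 to 1.12). Their intervals overlap those of the RGC RBPJ only members and of the members in both RGC lists, but not that of RGC Notch only. Members were slightly poorer in GC than the other 7 clusters, at 45.3% against 46.3%. Within 4 ranges of GC content the density of the members was again below that of the other 7 clusters, at 0.893 against 1.01 per kb under 42% GC, 1.0 against 1.19 from 42 to 46%, 1.06 against 1.28 from 46 to 50% and 1.08 against 1.27 from 50% upwards.

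Dam sites were dense in the members, with 3.66 GATC per kb (3.62 to 3.71), the highest density among the 8 clusters. Next came cluster 8 with 3.60, and cluster 4 had 3.38, cluster 5 had 3.08 and the genome had 2.52. A GATC was found in 91.1% of the central windows, in 76.9% of those of all consensus peaks and in 69.8% of the tiles, and the highest share of another cluster was 91.2%. No GATC was found in 9 members (0.412%), against 9.76% of all consensus peaks. Cluster 3 stood apart, with no site in 51.3% of its peaks and a site in 28.2% of its central windows. In each remaining cluster 1.05% to 4.04% of the peaks held none, and 77.5% to 91.2% of the central windows held a site. Since TaDa reads methylation at GATC, the density of these sites also bears on where a peak can be called, and its part in the cluster was not tested.

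**Figure D5:**
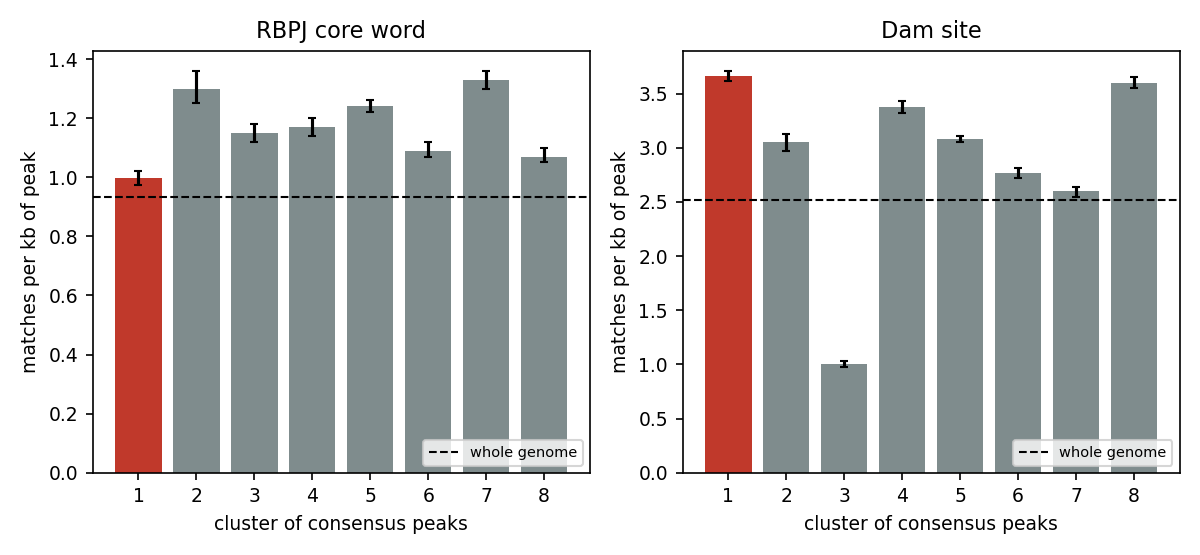
Matches per kb of peak of the RBPJ core word (left) and of the Dam site (right) in each of the 8 clusters of consensus peaks, with exact Poisson 95% intervals. Red is cluster 1, grey the others, and the dashed line is the whole genome. Cluster 1 has the lowest bar on the left (0.998) and the highest on the right (3.66).

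Words of other factor families were closer to the rest, counted per kb on both strands in cluster 1 and over the other 7 clusters. The homeobox word TAATTA stood at 0.337 against 0.361, the basic helix-loop-helix word CAGCTG at 0.517 against 0.538, the Sox word ACAAAG at 0.989 against 0.967 and the NFI word TTGGCA at 0.574 against 0.598. In the central windows of 500 bp the shares of members with them were 15.3%, 20.1%, 38.1% and 25.8%, beside 15.9%, 22.8%, 38.1% and 26.0% of all consensus peaks and 16.9%, 16.8%, 39.6% and 23.0% of the tiles. The ratio of observed to expected CpG was 0.268, against 0.365 in cluster 4, 0.314 in cluster 5 and 0.316 over the other 7. It was lower in clusters 3 (0.255) and 8 (0.200), and higher in clusters 2 (0.336), 6 (0.326) and 7 (0.401). Repeats masked in the reference made up 19.5% of the members' bases, 17.7% over the other 7 clusters and 36.4% of the genome.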

How the data were processed

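TaDa samples of RGC and IPC Notch and RBPJ (14 of the 39 samples) were used as the peaks that the authors deposited. Per the paper's methods, reads were mapped to mm10, broad peaks were called with MACS2 for each pair of Dam-fusion and Dam-only samples and kept if found in all pairs, overlapping peaks were merged and k-means numbers assigned. The deposited values are start and end positions in bp (the score columns are constant), with replicates pooled. No column holds values of a single sample, so depth per sample is unknown here. RGC and IPC Dam-only samples entered only as controls of the peak calls, and the other samples were not used here.

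Source calls were recomputed by overlap of at least 1 bp. Start sites were those of protein-coding transcripts (GENCODE M21), and 2 mitochondrial peaks were left out of comparisons. Words were counted on both strands of GRCm38.p6, GATC once per site. The code (Python 3, numpy, pandas, scipy) was tested on simulated intervals and by direct search. Intervals are 95%. No statistical test was run. Named genes are those with at least 5 members, the Notch pathway and plasmid-borne genes with a member, up to 4 genes of each other list, the 5 widest members and the 5 longest runs. Other genes, such as pathway genes without a member and those with one on a start site, were chosen after their values were seen. Results of some listed genes are not reported here. The members and lists were chosen with earlier results of these data known. Alternatives varied the overlap, gene set, distance, gap limit, window and word, and GC ranges were added after seeing the data.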

Additional observations from a re-analysis of the deposited data

How the results depend on the processing

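No paired analysis was possible because the lists pool the replicates. For the same reason no replicate was left out. Limiting members to peaks with higher scores was not run, since the lists hold no score. Of 67 alternatives over 27 results, 43 moved a share, median or density by less than its 95% interval, or a count by at most 1.5 times, and 24 moved it further.

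The share called for RGC Notch only was 62.6% with called peaks that cover at least 50% of the consensus peak and 56.3% for members of at least 1000 bp. The median distance to a start site was 9870 bp with all annotated genes and 48261 bp with 1 start site per gene, and the share on a start site 17.53% and 9.748%. The share with another member within reach was 9.06% at 20 kb and 28.8% at 100 kb. In the central 500 bp TTCCCA stood at 0.936 and GATC at 3.88 per kb, where cluster 1 came behind the 3.98 of another cluster. The TTCCCA density over that of the other 7 clusters was 0.838, and 0.772 in the central 500 bp, 0.755 for TTCCCAC and 0.880 under 42% GC. It was lowest of the 8 clusters in whole peaks, central windows, autosomes, wide peaks and with TTCCCAC.

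With the start sites of all annotated genes, fewer listed genes were nearest to a member: 10 for radial glia, 1 for intermediate progenitors, 5 for cortical neurons, 6 for Wnt, 3 for Eph and ephrins, 11 for axon guidance, 2 for Sox, 5 for homeobox and POU, 3 for Id, Tle and NFI, and 11 for neuronal adhesion. With members within 100 kb only, 1 intermediate progenitor gene was left. The lists of genes therefore depend on which start sites are counted, since that annotation adds noncoding genes.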
